A study of Mus musculus with 4 samples.

Results

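Young olfactory sensory neurons that carried several odorant receptors were compared with young neurons that carried a single receptor. Young neurons were barcodes with at least 500 genes, at most 10% mitochondrial UMIs, at least 3 UMIs of Gap43 (a growth-cone protein of growing axons), at most 20 UMIs of Omp (the olfactory marker protein of mature neurons) and fewer of Omp than of Gap43, and at most 10 UMIs of Cyp2g1, an enzyme of sustentacular cells. A UMI is a unique molecular identifier, which marks 1 captured RNA molecule. A several-receptor cell had at least 2 receptor genes with at least 2 UMIs each, and its top receptor held under 80% of its receptor UMIs. A single-receptor cell had at least 3 UMIs of its top receptor, which held 80% or more. The cells were thus chosen by measured values, those of the receptors, Gap43, Omp, Cyp2g1, gene number and mitochondrial share. This gave 197 several-receptor cells and 1223 single-receptor cells, 1420 in all, among 2328 young neurons and 41911 barcodes. The remaining 908 young neurons belonged to neither side, and 73 of these had no receptor UMI, 560 had a top receptor with 1 UMI, 157 had a top receptor with 2 UMIs, and 118 had a top receptor with 3 or more UMIs but a share under 80%.

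Each mature olfactory sensory neuron transcribes a single odorant receptor gene, on a single allele, out of a very large family. Developing neurons can transcribe several receptor genes at low level before a single gene becomes dominant. The chosen receptor protein is known to trigger an unfolded protein response in the endoplasmic reticulum, through the kinase PERK (gene Eif2ak3) and the factor Atf5, and this feedback lowers the histone demethylase LSD1 (gene Kdm1a), which takes part in the choice, and induces the cyclase Adcy3 and the receptor transport proteins Rtp1 and Rtp2.

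Wild-type C57BL/6J animals at 3 months of age gave 2 female and 2 male libraries, each of cells dissociated from main olfactory epithelium. The labels do not say whether a library holds 1 animal, so p-values refer to libraries and not to animals. The edgeR test used below also draws on the spread of other genes. Its SE and p-values are therefore not set by a gene's own spread between the libraries alone. A library held 100725429 to 111577458 UMIs in all. Library pairs shared between 136 and 172 barcode sequences, out of at least 10256 in each. The label of young neurons was checked against Gng8, Stmn2, Dpysl3, Crmp1 and Dcx, markers of immature neurons, which summed to between 4931 and 5490 CPM (UMIs of the gene scaled to the same total of UMIs in every sum) in the several-receptor cells of the 4 libraries, between 5797 and 6975 CPM in single-receptor cells, and all had UMIs on both sides.

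The receptor pairs of the several-receptor cells were scattered over the family, and 158 different receptors were the top receptor of a cell. Receptors with equal UMIs were ranked by their order in the gene list, so the top or second place is arbitrary where UMIs were tied. Olfr1348 was on top in 5 several-receptor cells and in 18 single-receptor cells, and Olfr1213, Olfr1347, Olfr1507, Olfr2, Olfr220, Olfr6 and Olfr726 led 3 several-receptor cells each. In single-receptor cells, 469 receptors took the top place, led by Olfr726 with 20 cells, Olfr1507 and Olfr536 with 19 each, Olfr1348 with 18 and Olfr1213 with 17. Only 2 pairs of top and second receptor occurred in more than 1 cell, each in 2 cells. Olfr220 with Olfr1229 was found in female 1 (2 UMIs of each receptor) and male 1 (5 and 2 UMIs), and these genes lie on different chromosomes. Olfr1030 with Olfr1031 was found in 2 cells of female 2, with Olfr1031 ahead in a cell of 13 and 5 UMIs and Olfr1030 ahead in a cell of 31 and 12 UMIs.

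Neighbouring receptor genes can share sequence, which lets reads of a single transcript be divided between them. Over the 197 cells the coding sequences of the top and second receptor had a median identity of 55.1%, and 5 cells held a pair with at least 80% identity. The most similar pair was Olfr726 and Olfr727 on chromosome 14 (93.1% identity), in 1 cell of female 1 with 18 UMIs of Olfr727 and 16 of Olfr726, which was also marked as a possible doublet. The pair seen in 2 cells of female 2, Olfr1030 (chr2:85979276-85988294, plus strand) and Olfr1031 (chr2:85990304-85993704, plus strand), had 65.1% identity, and the genes lie 2.01 kb apart. To show how similar the coding sequences of such pairs are, 90 aligned coding bases of each are printed 5′ to 3′. The bases that differ within a pair are in capitals (GENCODE M21 on GRCm38, bases 1 to 90 of Olfr726 and Olfr727, 31 to 120 of Olfr1030 and 10 to 99 of Olfr1031).
Olfr726: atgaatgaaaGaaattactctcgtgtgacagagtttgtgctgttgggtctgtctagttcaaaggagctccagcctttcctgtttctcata
Olfr727: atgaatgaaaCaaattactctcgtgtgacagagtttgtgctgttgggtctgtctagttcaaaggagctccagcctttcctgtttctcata
Olfr1030: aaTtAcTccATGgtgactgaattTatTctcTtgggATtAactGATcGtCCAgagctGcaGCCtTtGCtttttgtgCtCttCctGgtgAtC
Olfr1031: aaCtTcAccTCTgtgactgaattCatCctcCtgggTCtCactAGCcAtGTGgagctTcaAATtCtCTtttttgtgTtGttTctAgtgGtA
Olfr726 and Olfr727 differed at 1 of these bases, and Olfr1030 and Olfr1031 at 32. The kit read the 5′ end of transcripts, which can lie outside the coding sequence. Coding identity therefore does not show whether reads of a pair can be told apart. Without the 5 cells of similar pairs, the comparison of the sides below had 1526 genes past the threshold in place of 1569.

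The top and second receptor lay on the same chromosome in 41 of 197 cells (20.8%) and within 1 Mb in 19 cells (9.64%). As a description of what separate neurons give, the top receptors of 2 single-receptor cells of the same library lay on the same chromosome in 12.7% to 15.1% of cell pairs, and within 1 Mb in 3.93% to 5.03%. By library the several-receptor cells had 12 of 68, 10 of 48, 7 of 35 and 12 of 46 pairs on the same chromosome (female 1, female 2, male 1 and male 2). Within 1 Mb they had 7, 7, 2 and 3 pairs. Pairs picked among receptors of tied UMIs are included in these counts. The closest pairs were Olfr619 with Olfr620, 36 bases (0.036 kb) apart with 84 and 44 UMIs in a cell of female 1 and 55.6% coding identity, and Olfr1347 with Olfr1348, 38 bases (0.038 kb) apart with 4 and 3 UMIs in a cell of male 2 and 90.9% identity. The pair with the most UMIs of a second receptor, Olfr1413 with 82 and Olfr370 with 80 UMIs in a cell of female 1, was on different chromosomes.

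The values that chose the sides are given as a description, with no test. Median total UMIs were 10169 in several-receptor and 11238 in single-receptor cells, median receptor UMIs were 21 and 41, and the top receptor held a median of 54.2% and 96.9% of them. A median of 5 receptors had a UMI in several-receptor cells and 2 in single-receptor cells. Median Gap43 was 10 UMIs against 26, and median Omp was 2 UMIs on both sides. Most several-receptor cells, 142 of 197, had exactly 2 receptors with at least 2 UMIs, while 33 had 3, 17 had 4, 4 had 5 and 1 had 7. At the limit between the sides, the 25 several-receptor cells with a top share from 75% to under 80% had a median of 28 receptor UMIs, and the 83 single-receptor cells with a top share from 80% to under 85% had 13.

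The UMIs of the second receptor divided the several-receptor cells into groups of different character (bounds set after the data were seen). In 114 cells (37, 31, 18 and 28 by library) the second receptor had 2 to 4 UMIs, and these cells had a median of 9315.5 total UMIs, 8 UMIs of Gap43 and 6 receptors with a UMI. In 52 cells (23, 9, 10 and 10 by library) the second receptor had 10 or more UMIs, and the medians were 18707 total UMIs, 33.5 of Gap43, 41 of the top and 21 of the second receptor, with 4 receptors with a UMI. The other 31 cells (8, 8, 7 and 8) had a second receptor of 5 to 9 UMIs and a median depth of 9956 UMIs. Pairs on the same chromosome made up 18.4%, 45.2% and 11.5% of the cells with a second receptor of 2 to 4, 5 to 9 and 10 or more UMIs. The doublet score marked 0 of 114, 2 of 31 and 2 of 52 of these cells (0%, 6.45% and 3.85%; the 0 of 114 allows a share of up to 2.63%), and 40 of 1223 single-receptor cells (3.27%). A score of this kind responds little to droplets with 2 neurons of the same type, and the part of such droplets in the cells with 2 strong receptors, whose median depth was above that of single-receptor cells, was not tested.

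**Figure D1:**
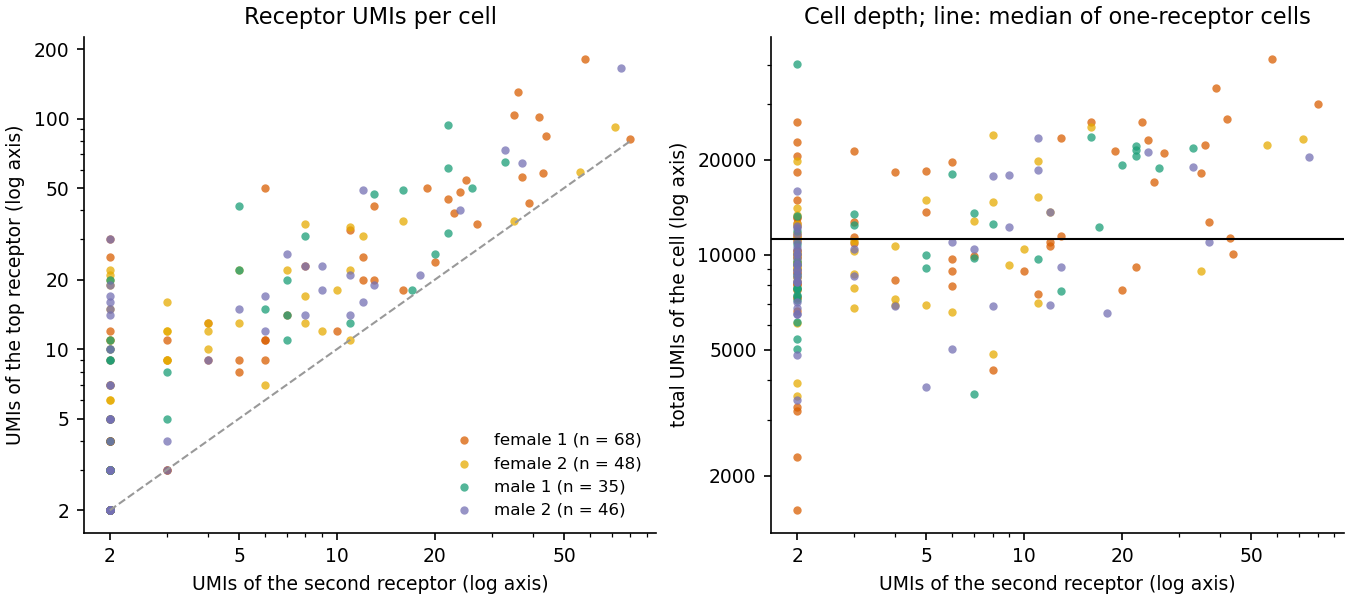
Each point is 1 of the 197 several-receptor cells, coloured by library, with the UMIs of its second receptor on the x axis (log) and, on the y axes (log), the UMIs of its top receptor (left; dashed line, equal UMIs) and its total UMIs (right; black line, the median of 11238 UMIs of single-receptor cells). Most of the 52 cells with a second receptor of 10 or more UMIs lie above the line, at a median of 18707 UMIs, while the 114 cells at 2 to 4 UMIs have a median of 9315.5.

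Several-receptor cells made up 16.6% of the classified young neurons (both sides together) in female 1 (exact binomial 95% interval 13.1% to 20.5%), 14.0% in female 2 (10.5% to 18.1%), 11.01% in male 1 (7.79% to 14.97%) and 13.2% in male 2 (9.84% to 17.2%), which is 13.7% ± 2.30 (SD, n = 4). Intervals cover counting error only. After each cell had been thinned to 5000 UMIs the share was 9.36% ± 1.02. The females had a mean of 15.3% ± 1.86 (SD, n = 2) and the males 12.1% ± 1.56, a difference of -3.16 points for males minus females with an exact two-sided permutation p = 0.333, the smallest that 2 against 2 libraries can give. No difference between the sexes was therefore shown.

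The same receptor rule was applied to cells before and after this stage. Several-receptor cells were 1.16% ± 0.292 (SD, n = 4) of all precursors (Neurod1 or Neurog1 with Gap43 under 3 UMIs). They were 13.2% ± 1.92 of newly mature neurons (Gap43 of at least 3 UMIs, and Omp over 20 or not below Gap43). The share was 4.57% ± 0.681 of mature neurons (Omp over 20 UMIs, Gap43 under 3), beside 8.46% of all 2328 young neurons. Sustentacular cells, which should hold only free receptor RNA, gave 3.55% ± 0.502. At 5000 UMIs per cell the shares were 0.286% in precursors, 5.39% in young neurons, 12.8% in newly mature neurons, 4.45% in mature neurons and 0.459% in sustentacular cells. The marked doublets moved with the newly mature share, which was 9.06% without them, while the share of classified young neurons was 13.8% without them. Median depth was 13299 UMIs in newly mature neurons, 13375 in sustentacular cells and 10362 in young neurons.

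The share of several-receptor cells by Tex15 depended on the denominator. Tex15, a gene known from germ cells, is transcribed by late precursors and the youngest olfactory neurons. Several-receptor cells were 11.5%, 21.2% and 63.0% of classified young neurons with 0, 1 to 2 and 3 or more Tex15 UMIs, which rests on 149 of 1300, 14 of 66 and 34 of 54 cells. Of all young neurons in these classes they were 8.09%, 10.4% and 9.69%, since 297 of the 351 young neurons with 3 or more Tex15 UMIs belonged to neither side. At 5000 UMIs per cell the order turned, with 5.89%, 5.26% and 2.96% of all young neurons. The 351 young neurons with 3 or more Tex15 UMIs also had more receptors with a UMI, a mean of 7.05, 5.90, 6.19 and 5.68 in the 4 libraries against 2.74, 2.61, 2.68 and 2.71 in the 1842 neurons without Tex15. At 5000 UMIs per cell the means were 3.94, 3.21, 3.60 and 2.86 against 1.84, 1.76, 1.76 and 1.86. The groups did not overlap in either form, and median depth was lower in the Tex15 cells (9543 against 10478 UMIs). By Omp, several-receptor cells were 15.5%, 14.2% and 10.9% of classified young neurons with 0, 1 to 5 and 6 to 20 Omp UMIs.

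**Figure D2:**
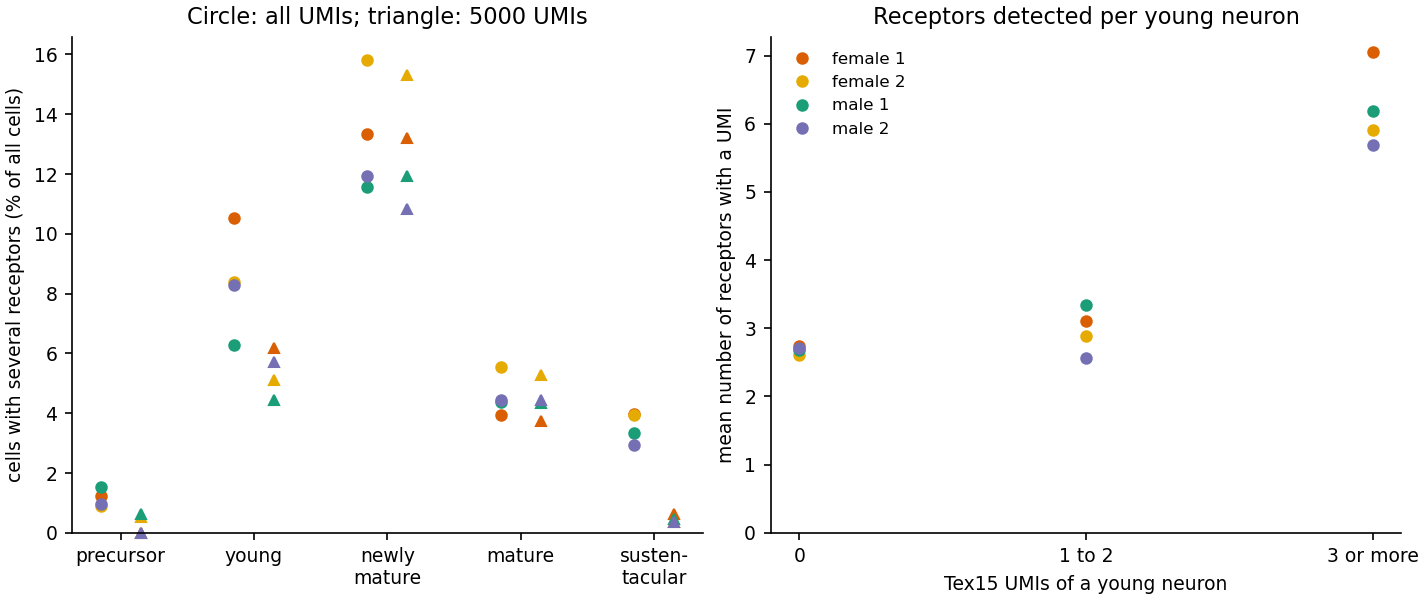
Left, several-receptor cells as a percentage of all cells of each stage, 1 point per library (colours as on the right), from all UMIs (circles) and from 5000 UMIs per cell (triangles): the young share is lower at 5000 UMIs (5.39%) and the sustentacular share falls to 0.459%. Right, mean number of receptors with a UMI per young neuron against the Tex15 UMIs of the neuron: the 4 libraries lie between 5.68 and 7.05 at 3 or more Tex15 UMIs and between 2.61 and 2.74 at 0.

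Free receptor RNA was described from the sustentacular cells. The 20 receptors most abundant there, chosen for it, held 28.6% to 36.4% of the receptor UMIs of sustentacular cells in the 4 libraries and 16.2% to 54.3% in those sustentacular cells that met the several-receptor rule. They held 13.7% to 18.5% in mature neurons, 5.99% to 13.4% in several-receptor cells with a second receptor of 2 to 4 UMIs, 3.43% to 5.91% in young neurons with 3 or more Tex15 UMIs, and 14.2% to 23.6% in single-receptor cells. Receptor UMIs summed to 219 to 270 CPM in sustentacular cells, 432 to 470 CPM in young neurons of neither side and 1351 to 1635 CPM in cells with a second receptor of 2 to 4 UMIs. The part of free RNA in the weak second receptors was not tested.

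Genes that the rule did not use were tested on counts summed per library and side. In edgeR's quasi-likelihood test with the library as a block and Benjamini-Hochberg adjustment at 0.05, 1569 of 10338 genes differed (15.2%), 800 higher (7.74%) and 769 lower (7.44%) in several-receptor cells, and the median log2 fold change over all genes tested was 0.0051. All fold changes below are log2 values of several-receptor over single-receptor cells, and levels are CPM with TMM scaling. Each several-receptor cell was also paired with 1 single-receptor cell of its library, by the closest set of pairs in depth, Gap43 and Omp. No limit was set on the distance within a pair, and how equal Gap43 and Omp became is not given here. The paired single-receptor cells summed to fewer UMIs in all 4 libraries, from 478772 against 488160 in male 2 to 400638 against 445555 in male 1. In these pairs 214 of 7851 genes passed (2.73%), 195 of them also called in the full comparison in the same direction. These pairs are called the matched cells below. In DESeq2, 746 genes passed. Of 66 named genes called in the full comparison and tested in the matched cells, 31 were not called there, and each list below gives its members that stayed. Over all genes, 195 of the 1569 called genes stayed, and some of the 1569 were not tested there. These counts, and the 7.74% higher and 7.44% lower over all genes, are the background for the list counts below.

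Tex15 and Crabp1 had the largest rises among genes at 20 CPM or more. Tex15 had 666, 467, 353 and 524 CPM in the several-receptor cells of female 1, female 2, male 1 and male 2, and 42.6, 14.7, 32.0 and 34.0 CPM in single-receptor cells. The sides did not overlap, and Tex15 was higher by 4.04 (SE 0.12, adjusted p = 6.3e-17, 4 of 4 libraries). Crabp1, a cytoplasmic carrier of retinoic acid, had 1667, 2193, 1509 and 1902 CPM against 221, 156, 207 and 193 CPM, higher by 3.22 (SE 0.10, adjusted p = 6.3e-17). Tex15 UMIs were present in 24.4% of several-receptor cells and 5.89% of single-receptor cells, and those of Crabp1 in 74.6% and 44.5%. In the matched cells both stayed past the threshold, with smaller differences of 2.73 and 2.03. Other genes of large rise were Lypd1 (2.96), Khdrbs2 (2.37), the chromatin reader Zmynd8 (2.12), the LIM-only factor Lmo1 (2.04), Brinp1 (1.98), Sertad2 (1.90), Cdk18 (1.86), the homeobox factor Dlx5 (1.83) and the guidance molecule Rgma (1.82). Each was higher in all 4 libraries, and adjusted p-values of these 9 lay between 3.6e-12 and 1.2e-05. Cdk18 was not tested in the matched cells.

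Among the largest falls, Apoe had the largest at -2.52 (SE 0.36, adjusted p = 2.2e-05), with 38.9, 9.19, 2.28 and 0 CPM in several-receptor cells (0 of 488160 UMIs in male 2, which allows up to 6.15 CPM) and 60.9, 172, 45.6 and 155 CPM in single-receptor cells. Its UMIs sat in few cells, 11 several-receptor cells and 61 single-receptor cells, and 1 cell held 65.1% of the UMIs of several-receptor cells and 1 cell 32.2% of those of single-receptor cells. By library the log2 differences of Apoe were -0.64, -4.09, -3.84 and -7.32, a spread that the SE does not show. Without female 1 the value was -4.95, and without the 5 cells of similar receptor pairs it was -3.99. Apoe encodes a lipid carrier of macrophages and glia. The 9 markers of leukocytes summed to 4.49 to 63.0 CPM in several-receptor cells and 18.4 to 337 CPM in single-receptor cells, ranges that overlapped. Ptprc, Cd79a and Cd3e had 0 UMIs in several-receptor cells (which allows up to 1.25 CPM). The leukocyte marker Cd74 had log2 differences of -0.65, -3.08 and -3.14 in female 2, male 1 and male 2. In female 1 it went the other way from Apoe, at 2.24 (56 against 49 UMIs). The part of leukocytes in the Apoe result was not tested. The genes next in size were Nqo1 (-1.89), a quinone reductase used as a mark of the dorsal zone, Galnt6 (-1.32), the phosphatase Ptprr (-1.29), Rnaset2a (-1.24, whose reads can be shared with its near-identical copy), the chaperone Hspa2 (-1.20), Thegl (-1.13), 1700007K13Rik (-1.10), Eef2kmt (-1.10), Csrnp3 (-1.09), Ifi27 (-1.08) and Jakmip1 (-1.02). These 11 genes were lower in all 4 libraries, with adjusted p-values from 1.06e-06 to 0.0095. Galnt6 had 27.3, 33.1, 29.6 and 27.1 CPM against 73.1, 76.2, 79.6 and 62.5 CPM, with no overlap. Csrnp3 was not called without female 2 (adjusted p = 0.071) or male 1 (0.057), or without the library block (0.071). In the matched cells Csrnp3 (-0.71, adjusted p = 0.42), Ptprr (-0.76, 0.22), 1700007K13Rik (-0.84, 0.14), Eef2kmt (-0.84, 0.11) and Jakmip1 (-0.60, 0.057) were not called, and with depth alone matched Galnt6 (-0.57, adjusted p = 0.15), Csrnp3 (-0.68, 0.30) and 1700007K13Rik (-0.74, 0.12) were not. Nqo1 and Thegl were not tested in either matched set.

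**Figure D3:**
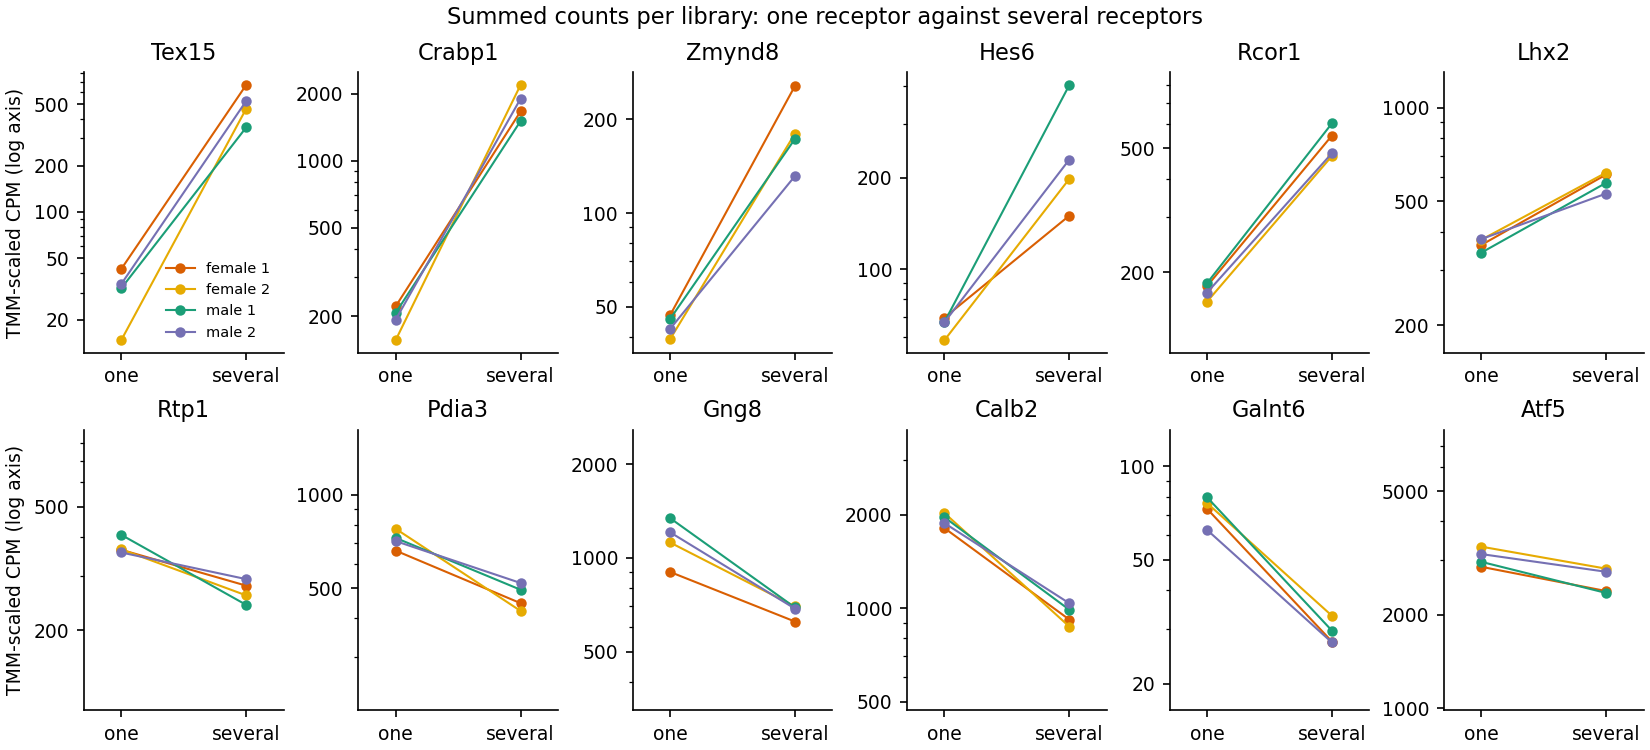
TMM-scaled CPM (log axes, each panel with its own range) of 12 genes in the summed single-receptor (one) and several-receptor (several) cells, 1 line per library. Tex15, Crabp1, Zmynd8, Hes6, Rcor1 and Lhx2 are higher and Rtp1, Pdia3, Gng8, Calb2, Galnt6 and Atf5 lower in the several-receptor cells of all 4 libraries.

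Of 12 genes of receptor choice and feedback, 5 were higher, 5 lower and 2 not called, with a median of -0.23. In the matched cells 2 of the 10 called genes stayed, Lhx2 and Adcy3. Lhx2, a LIM-homeodomain factor that binds receptor enhancers, had 611, 619, 574 and 530 CPM against 362, 377, 342 and 378 CPM, without overlap, a rise of 0.68 (SE 0.06, adjusted p = 4.8e-08). Its cofactor Ldb1 rose by 0.48 (in the matched cells 0.32, adjusted p = 0.097) and the homeobox factor Emx2 by 0.22 (adjusted p = 0.034; in the matched cells 0.16, adjusted p = 0.50, in DESeq2 0.22, adjusted p = 0.24, and without the library block 0.23, adjusted p = 0.094). Kdm1a (LSD1) had 322, 425, 417 and 415 CPM against 310, 335, 330 and 335 CPM, a rise of 0.25 (SE 0.07, adjusted p = 0.014), and it was not called in the matched cells (0.064, adjusted p = 0.82), in DESeq2 (0.26, adjusted p = 0.095) or without the library block (0.25, adjusted p = 0.071). Adcy3, a cyclase of odour transduction and a target of the feedback, was also higher, by 0.39 (adjusted p = 0.0027), and was not called in DESeq2 (adjusted p = 0.066) or without female 1 (adjusted p = 0.054). Emx2 was not called when any 1 library was left out (adjusted p from 0.074 to 0.11), nor was Kdm1a without female 2, male 1 or male 2 (0.053 to 0.084). The lower genes were the transport proteins Rtp1 (-0.46, adjusted p = 0.0001) and Rtp2 (-0.45, adjusted p = 0.00056), the chaperone Hspa5 (-0.33), Ddit3 (-0.36, lower in 3 of 4 libraries) and Atf5 (-0.25, adjusted p = 0.00013). In the matched cells Rtp1 (-0.26, adjusted p = 0.25), Rtp2 (-0.26, adjusted p = 0.31), Hspa5 (-0.24, adjusted p = 0.13), Ddit3 (-0.17, adjusted p = 0.69) and Atf5 (-0.11, adjusted p = 0.37) were not called. Ddit3 was also not called in DESeq2 (adjusted p = 0.15), without the library block (0.35) or without female 1, male 1 or male 2 (adjusted p from 0.070 to 0.15). Rtp1 had 278, 259, 242 and 292 CPM against 363, 364, 406 and 356 CPM. The PERK gene Eif2ak3 was at -0.25 (adjusted p = 0.27) and the lamin B receptor Lbr at -0.21 (adjusted p = 0.64), and neither was called.

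The unfolded protein response list shared 4 genes with the one above (Atf5, Ddit3, Eif2ak3 and Hspa5). Of its 22 genes, 11 were lower, 0 higher and 11 not called, with a median of -0.30. The largest falls were in the disulfide isomerase Pdia3, the cochaperone Dnajb11 (-0.51), Herpud1 (-0.49), which takes part in degradation of proteins of the endoplasmic reticulum, and the transcription factor Xbp1 (-0.42). Pdia3 had 448, 423, 495 and 520 CPM in several-receptor cells and 661, 777, 726 and 709 CPM in single-receptor cells, a fall of -0.61 (SE 0.07, adjusted p = 4.9e-07) that stayed past the threshold in matched cells (-0.37, adjusted p = 0.013). It was the 1 gene of the 11 called in matched cells, where Dnajb11, Herpud1 and Xbp1 had adjusted p = 0.068, 0.39 and 0.056.

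Of 25 genes of chromatin and the nuclear lamina, 7 were higher, 2 lower and 16 not called (median 0.22). Rcor1 and Rcor2, the CoREST proteins that bind LSD1, rose by 1.59 and 1.35. Rcor1 had 550, 472, 602 and 482 CPM against 180, 161, 184 and 172 CPM, a difference above the spread of both sides (SE 0.07, adjusted p = 3.4e-14). The histone deacetylase Hdac2 rose by 0.73, lamin B2 (Lmnb2) by 0.61, and the Polycomb genes Ezh2 by 0.54 and Suz12 by 0.53. Lamin A (Lmna, -0.41, lower in 3 of 4 libraries) and the DNA methyltransferase Dnmt3a (-0.26) were lower. The heterochromatin genes Ehmt1 (0.18, adjusted p = 0.44), Ehmt2 (0.17, adjusted p = 0.52), Cbx5 (0.26, adjusted p = 0.44) and Setdb1 (0.29, adjusted p = 0.18) were not called. Rcor1, Hdac2 and Suz12 stayed past the threshold in the matched cells, while Rcor2 (0.68, adjusted p = 0.070), Lmnb2 (0.56, 0.12), Ezh2 (0.29, 0.32), Lmna (-0.49, 0.15) and Dnmt3a (-0.14, 0.61) did not. In DESeq2 Lmnb2 (adjusted p = 0.067), Lmna (0.30) and Dnmt3a (0.22) were not called, nor was Lmna without the library block (0.054).

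Of 18 transcription factors of olfactory neurons, 12 were higher and 0 lower (median 0.51). Besides Lhx2, Ldb1 and Emx2 these were Nfia (0.96), Tshz1 (0.93), Nfib (0.90), Sox4 (0.83), Zfp423 (0.70), Ebf1 (0.56), Sox11 (0.55), Ebf3 (0.53) and Ebf2 (0.31). Tshz1 had 324, 268, 333 and 330 CPM against 175, 137, 159 and 188 CPM (SE 0.07, adjusted p = 3.8e-09), without overlap. Lhx2, Tshz1, Ebf1, Sox11 and Ebf3 stayed past the threshold in the matched cells, and Nfia (0.67, adjusted p = 0.080), Nfib (0.44, 0.056), Sox4 (0.11, 0.84), Zfp423 (0.37, 0.40) and Ebf2 (0.19, 0.16) did not. With depth alone matched Sox4 turned to -0.21 (adjusted p = 0.41), and Nfia (0.50, 0.074) and Zfp423 (0.50, 0.14) were not called. Nfix (-0.022) and Tshz2 (-0.021) were not called.

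The list of precursor genes had 10 of 12 members tested, of which 5 were higher and 2 lower (median 0.41). Beside Tex15 and Crabp1, the higher genes were Hes6 (1.80, adjusted p = 6.2e-09), Sox11 and Ezh2. Hes6, a factor of late precursors, had 150, 199, 403 and 230 CPM against 69.5, 58.6, 67.2 and 67.1 CPM, and 1 several-receptor cell held 20.3% of its UMIs. Male 1 also had the highest sum of globose basal and cycling markers in cells with a second receptor of 2 to 4 UMIs, 657 CPM, where the lowest library had 3.95 CPM, and its part in Hes6 was not tested. The proneural genes Neurog1 (0.29, adjusted p = 0.66) and Neurod1 (-0.42, adjusted p = 0.53) were not called, with means of 10.7 against 8.39 CPM and 11.98 against 15.2 CPM. Insm1 (-0.31) and Nhlh1 (-0.23) were lower. Tex15, Crabp1, Hes6 and Sox11 stayed in the matched cells and Insm1 did not (-0.30, adjusted p = 0.051). Nhlh1 was not called there (0.61), in DESeq2 (0.20) or without the library block (0.30). Of 10 cell cycle genes tested 0 were called, beside 15.2% of all genes tested, and so few genes show no departure from that share.

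Of 20 genes of immature growth and the cytoskeleton, 3 were higher and 7 lower (median -0.13). Gng8, a G protein subunit of immature neurons, had 624, 698, 693 and 687 CPM against 901, 1121, 1343 and 1210 CPM and fell by 0.74 on the log2 scale (SE 0.06, adjusted p = 1e-08). Stmn3 (-0.51), Tuba1a (-0.38), Ncam1 (-0.29) and Stmn2 (-0.26) were also lower. The chemokine receptor Cxcr4 was the largest rise in the list (3.04, adjusted p = 1.7e-06) at low level, 34.7, 23.9, 13.7 and 12.5 CPM against 2.86, 4.04, 2.33 and 1.24 CPM, from 58 and 37 UMIs in all. Mapt (0.38) and Basp1 (0.22) were higher. In the matched cells 1 of 9 tested stayed, Gng8, and Stmn3 (-0.23, adjusted p = 0.11), Tuba1a (-0.14, 0.088), Ncam1 (-0.12, 0.38), Stmn2 (-0.02, 0.93), Mapt (0.22, 0.34) and Basp1 (0.17, 0.30) did not. Among the 9, 1 lower gene that is not named here changed direction. Cxcr4 was not tested there, and Basp1 was also not called in DESeq2 (0.085) or without the library block (0.15).

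Of 24 genes of maturity and odour transduction, 4 were higher and 9 lower (median -0.19). The lower genes held the channel subunit Cnga2 (-0.76), the G protein subunits Gnal (-0.57), Gnb1 (-0.39) and Gng13 (-0.35), Gfy (-0.64) and Faim2 (-0.56). Cnga2 had 154, 153, 139 and 152 CPM against 241, 270, 260 and 256 CPM, without overlap (SE 0.08, adjusted p = 3.4e-07). The higher genes were the glutamate transporter Slc17a6 (1.72), Umodl1 (1.65), the phosphodiesterase Pde1c (0.81) and Adcy3. The transduction genes Cnga4 (-0.17, adjusted p = 0.65) and Ano2 (-0.13, adjusted p = 0.75) were not called. The 4 higher genes stayed in the matched cells, with Gnb1 and Gfy of the lower ones, while Cnga2 (-0.36, adjusted p = 0.092), Gnal (-0.26, 0.13), Gng13 (-0.04, 0.84) and Faim2 (-0.29, 0.43) did not. Of the 13 called genes of this list, 1 that is not named here changed direction in the matched cells. Gng13 was also not called without the library block (0.15).

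Of 29 genes of axon guidance and adhesion, 5 were higher, 5 lower and 19 not called (median -0.10). Nrp2, a semaphorin receptor that sorts axons, had 393, 401, 235 and 324 CPM against 209, 201, 186 and 185 CPM and rose by 0.80 (SE 0.08, adjusted p = 3e-07), and Robo2 (0.44) and Epha5 (0.73, higher in 3 of 4 libraries) rose as well. Pcdh19 (-0.77), Tenm2 (-0.60), Tenm4 (-0.59), Cntn4 (-0.48) and Ptprf (-0.31) were lower. Nrxn3, a presynaptic adhesion protein, was higher by 2.03 (SE 0.51, adjusted p = 0.0072) on 19 and 27 UMIs, at 6.31, 9.19, 6.84 and 10.4 CPM against 1.67, 1.44, 3.00 and 1.86 CPM, and without female 2 it was not called (adjusted p = 0.056). Cntnap2 rose by 1.78 on 26 and 42 UMIs. Nrxn2 (0.13, adjusted p = 0.48) was not called. Of 8 called genes tested in the matched cells 1 stayed, Nrp2, beside 195 of the 1569 called genes over all. The others of the 8 had adjusted p from 0.089 (Cntn4, -0.26) to 0.69 (Ptprf, -0.16). Nrxn3 and Cntnap2 were not tested there. In DESeq2 Epha5 (adjusted p = 0.14), Tenm4 (0.054) and Ptprf (0.23) were not called.

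Of 11 genes of epithelial zone and activity, 4 were higher (Nfia, Pcp4l1, Nfib and Nrp2) and 2 lower (Nqo1 and Calb2), with a median of 0.16. Calb2, a calcium buffer, had 920, 873, 989 and 1038 CPM in several-receptor cells and 1812, 2026, 1963 and 1879 CPM in single-receptor cells, a fall of -1.01 (SE 0.05, adjusted p = 5.5e-12). Of 14 tested genes of vesicles and glutamate release, 1 was higher (Slc17a6) and 4 were lower, Syn1 (-0.84), Snap25 (-0.69), Syp (-0.38) and Vamp2 (-0.26), with a median of -0.04. Slc17a6 stayed in the matched cells, and Syn1 (-0.47, adjusted p = 0.38), Snap25 (-0.34, 0.12), Syp (-0.07, 0.85) and Vamp2 (-0.07, 0.78) were not called. Vamp2 was also not called in DESeq2 (0.090). Of the zone and activity genes Nrp2, Pcp4l1 and Calb2 stayed in the matched cells, and Nqo1 was not tested there.

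Of 81 tested ribosomal protein genes, 68 were higher and 0 lower, with a median of 0.32 against 0.0051 over all genes. Rplp0 had 1616, 1707, 1846 and 1568 CPM against 1114, 989.8, 1118 and 1151 CPM, a rise of 0.62 (SE 0.05, adjusted p = 2.1e-08). Of the 68, 10 stayed past the threshold in the matched cells, Rplp0 among them. Of 12 stress and immediate early genes, Jun (0.70) and Dusp1 (0.27, higher in 3 of 4 libraries) were higher and Atf3 (-0.63), Egr1 (-0.35) and Fos (-0.32, lower in 3 of 4 libraries) were lower. Egr1 was not called without female 1 (adjusted p = 0.055), nor Fos without female 2 (0.072) or male 2 (0.063). Without the library block, and in the matched cells, Jun alone of the 5 was called, with adjusted p of the others from 0.14 to 0.44 and from 0.27 to 0.88. Median mitochondrial shares were 1.42% and 1.11%.

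The summed markers of microvillar cells did not overlap between the sides, at 0 to 1.07 CPM in several-receptor cells and 2.44 to 11.4 CPM in single-receptor cells over 4 markers, with Ascl3, Foxi1 and Cftr at 0 UMIs in several-receptor cells. The summed several-receptor cells held 445555 to 935767 UMIs per library, and the single-receptor cells 3041044 to 4095157. Sums this low on the smaller side do not exclude values within the single-receptor range, so the lack of overlap shows no difference. The part of microvillar cells in the results was not tested. Apart from neurons, the ranges of the other cell types overlapped. The 6 mature neuron markers summed to 1043 to 1352 CPM in several-receptor cells and 1422 to 1673 CPM in single-receptor cells, without overlap. Sums of the immature neuron markers, given above, did not overlap either. The 7 sustentacular markers summed to 287 to 1283 CPM in several-receptor cells and 381 to 890 CPM in single-receptor cells, and the 4 respiratory ciliated markers to 92.0 to 136 and 121 to 153 CPM. Respiratory secretory markers had 164 to 733 CPM and 218 to 3967 CPM, with Scgb1a1 at 0 UMIs on both sides. Markers of horizontal basal cells lay at 2.05 to 151 and 11.1 to 97.2 CPM, and of ensheathing glia at 0 to 7.48 and 3.29 to 36.0 CPM.

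When the several-receptor cells were divided by their second receptor, more genes were called in the cells with a weak second receptor, which were also more numerous. Against all single-receptor cells, the 114 cells with a second receptor of 2 to 4 UMIs differed in 1876 of 10104 genes (18.6%), and the 52 cells with 10 or more UMIs in 37 of 10120 (0.366%). Tex15 stood at 1451, 838, 798 and 873 CPM (without TMM scaling, by library) in the cells with 2 to 4 UMIs and at 85.7, 6.85, 11.3 and 13.4 CPM in those with 10 or more, beside 1015, 886, 955 and 1014 CPM in young neurons of neither side and 43.7, 14.7, 31.6 and 33.8 CPM in single-receptor cells. Rcor1 stood at 1033, 716, 1127 and 655 CPM in the cells with 2 to 4 UMIs and at 160, 171, 169 and 100.1 CPM in those with 10 or more. For Lhx2 the values were 856, 767, 730 and 632 CPM, and 384, 356, 400.5 and 294 CPM. The values of each gene did not overlap between these groups of cells. The log2 differences from single-receptor cells were 5.06 and 0.24 for Tex15, 4.08 and 0.27 for Crabp1, 2.34 and -0.24 for Rcor1, and 1.06 and -0.036 for Lhx2, and the second value was not called in any of these 4 genes (adjusted p = 0.95, 0.70, 0.82 and 0.98). Both comparisons share the single-receptor cells, and the difference between the groups itself was not tested.

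A smaller set of genes differed in the cells with 2 strong receptors. Umodl1 had 81.1, 137, 141 and 60.1 CPM there and 24.9, 21.01, 17.4 and 20.0 CPM in single-receptor cells, higher by 2.21 (SE 0.24, edgeR adjusted p = 6.8e-12), and in cells with a weak second receptor it was not called (0.71, adjusted p = 0.14). Pde1c (0.73), Adcy3 (0.62), Stoml3 (0.53), the actin motor Myo6 (1.36) and Epha5 (1.42) were also higher, and Calb2 (-0.45), Gng8 (-0.44), Nqo1 (-1.56) and Hspa2 (-1.001) were lower. Genes of sustentacular cells were among those called, Cyp2f2 (0.83), Cbr2 (0.88), Sec14l3 (0.90), Gstm2 (1.36) and Cyp4b1 (1.64) higher, and so were the respiratory secretory genes Bpifa1 (-2.07) and Reg3g (-2.10), lower. The sustentacular markers summed to 186 to 1950 CPM in these cells against 381 to 890 CPM in single-receptor cells, and their part in the result was not tested. Of the 37 genes, 25 were also called in the comparison of all several-receptor cells, in the same direction.

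**Figure D4:**
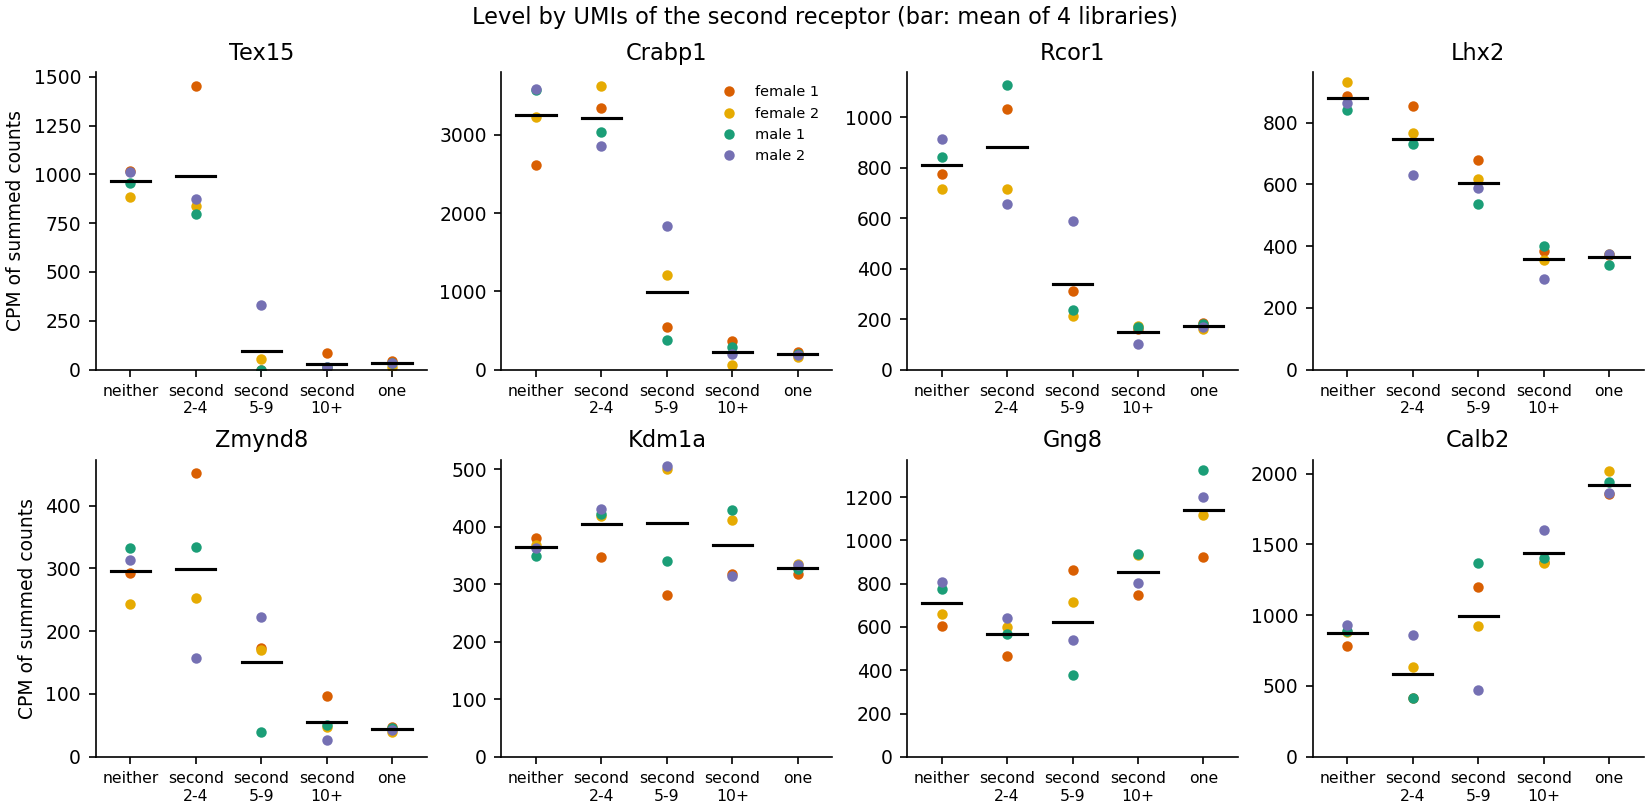
CPM of summed counts of 8 genes in young neurons of neither side, in several-receptor cells with a second receptor of 2 to 4, 5 to 9 and 10 or more UMIs, and in single-receptor cells (one), 1 point per library and a bar at the mean. Tex15, Crabp1, Rcor1, Lhx2 and Zmynd8 in cells with 10 or more UMIs lie near the single-receptor cells, and in cells with 2 to 4 UMIs nearer to the neurons of neither side (Tex15 798 to 1451 CPM against 886 to 1015 CPM).

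The difference between the sides was compared between males and females with an interaction term. Of 10338 genes, 2 passed (0.0193%), Lars2 and Cd74, while 476 had an unadjusted p under 0.05. Both are described with the closing observations.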

How the data were processed

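Raw UMI counts per gene and barcode were deposited by the authors, with no normalization, for 4 libraries of a droplet kit that reads the 5′ end of transcripts. Counting used Cell Ranger, version 6.0.2 per the file headers and 5.0.1 per the submitters' processing notes, which name the mm10 build. The gene models and how barcodes were called are not given in the sources used here. Receptors were the 1103 Olfr genes, and 34 receptor pseudogenes were kept apart. Positions and coding sequences are from GENCODE M21 on GRCm38. The cells and gene lists were chosen with earlier results of these data known.

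Counts were summed per library and side and tested with edgeR 4.0.16 (R 4.3.3; TMM, filterByExpr, quasi-likelihood test, Benjamini-Hochberg at 0.05) with the library as a block, since both sides come from the same library. Receptor genes, pseudogenes, Gap43, Omp, Cyp2g1 and mitochondrial genes stayed in the totals and were not tested. Named genes were the 12 of largest change in each direction at 20 CPM or more with the same direction in 4 libraries, up to 4 called members of each list with its most expressed members not called, and a fixed set around receptor choice; others in a list or among the cells with 2 strong receptors were chosen after their values were seen. Some genes that this rule names are not reported here. Doublets were scored against 2 simulated doublets per barcode with 50 neighbours, and the top 0.8% per 1000 barcodes were marked, not removed. Tested on simulated data, 76.5% of 98 changes of 1 log2 unit and 97.9% of 97 changes of 2 units were recovered for the comparison of the sides, with 9 false calls among 10173 genes. DESeq2 1.42.0, matching on depth, Gap43 and Omp, thinning, other gates and leaving out each library were alternatives.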

Additional observations from a re-analysis of the deposited data

Results flagged for a closer look

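Pseudogenes of the receptor family stayed out of the receptor rule. At least 3 UMIs of 1 pseudogene were found in 50 of 2328 young neurons (2.15%, exact binomial 95% interval 1.60% to 2.82%), and in 16 of 5919 sustentacular cells (0.270%), and Olfr1192-ps1 was present at this level in 9 young neurons.

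The difference between several-receptor and single-receptor cells was not the same in males and females for 2 genes in edgeR's interaction test. Lars2, a mitochondrial leucyl-tRNA synthetase, differed by 0.92 on the log2 scale for males minus females (adjusted p = 7.2e-05), with -0.48 and -0.87 in female 1 and female 2 and 0.41 and 0.10 in male 1 and male 2. Of the 2436 Lars2 UMIs of several-receptor cells, 1 cell held 12.9%, and the library sums were 664, 366, 724 and 682 UMIs. The part of this cell in the Lars2 result was not tested. Cd74, the invariant chain of antigen presentation and a leukocyte marker, differed by -4.60 (adjusted p = 8.3e-06), from 56, 7, 0 and 14 UMIs in several-receptor cells and 49, 72, 22 and 859 in single-receptor cells. A single cell held 41.6% of the Cd74 UMIs of several-receptor cells, and another 41.9% of those of single-receptor cells. Log2 differences of Cd74 were 2.24 and -0.65 in female 1 and female 2 and -3.08 and -3.14 in male 1 and male 2. In DESeq2 the interaction called 1 gene, with a positive difference, and 0 with a negative one, so the fall in Cd74 was not called there.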

How the results depend on the processing

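The number of genes called between the sides was 1569, and 746 in DESeq2, 680 with cells matched on depth, 214 matched on depth, Gap43 and Omp, 368 matched on receptor UMIs, 445 at 5000 UMIs per cell, 516 with Omp at 0, 249 with Gap43 of at least 10 UMIs and 428 with a second receptor of at least 3 UMIs. Choices added after the data were seen gave 37 genes with a second receptor of at least 10 UMIs and 960 without cells of 3 or more Tex15 UMIs. Matching and several gates also leave fewer cells. Leaving out a library gave 1088 to 1390 genes. Members of the lists called were 150, and 90, 35 and 81 in the 3 matched sets, 84 at 5000 UMIs, 46 at Gap43 of at least 10, 58 with a second receptor of at least 3 and 8 with one of at least 10 UMIs, and 133 to 148 without a library. Of 72 named genes called, 62 kept their direction under all 27 alternatives that gave a value, and many lost the call: 5 of 72 in DESeq2, 7 of 72 with no replicate block, 31 of 66 matched on depth, Gap43 and Omp, 28 of 69 at Gap43 of at least 10 and 52 of 69 with a second receptor of at least 10 UMIs.

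With a second receptor of at least 10 UMIs, Lhx2 turned to -0.036, Ldb1 to -0.044, Rcor1 to -0.24, Lmnb2 to -0.16, Pcdh19 to 0.22, Syp to 0.053, Jun to -0.0050, Egr1 to 0.15 and Emx2 to -0.082. With Gap43 of at least 10 UMIs Egr1 turned to 0.064 and Emx2 to -0.10, and with matched depth Sox4 turned to -0.21. Nrxn2, which was not called, had -0.24 at 5000 UMIs, -0.40 at Omp 0 and -0.023 with a top share under 60%. The causes were not tested.

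The share of classified young neurons was 9.36% at 5000 UMIs, 6.54% at 3000 UMIs, 7.59% with a second receptor of at least 3 UMIs, and 12.7% to 14.6% without a library. By stage, precursors had 0.286% at 5000 UMIs, and 0 of 817 cells at 3000 UMIs and 0 of 870 with a second receptor of at least 3 (up to 0.367% and 0.345% allowed). Newly mature neurons had 11.2% at 3000 UMIs and 9.06% without marked doublets, mature neurons 3.74% without marked doublets, and sustentacular cells 0.459%, 0.283% and 0.878% at 5000 UMIs, at 3000 UMIs and with a second receptor of at least 3. Without a library these shares were 1.03% to 1.24%, 12.3% to 13.7%, 4.25% to 4.78% and 3.40% to 3.75% in the order precursor, newly mature, mature and sustentacular.

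Deviations of the side difference had a correlation of -0.07 over 4470 genes between libraries of the same replicate number. A batch that acts on both sides of a library cancels in this difference, so the value cannot decide on pairing. The labels do not say whether the replicate numbers pair females with males. With the number as a replicate block the interaction called 11 genes in place of 2, and the sex difference in share was -3.16 points (p = 0.50 by exact permutation). The interaction called 1 gene in DESeq2, 22 with no filter, 31 without marked doublets and 13 to 20 without a library, and the sex difference in share ranged from -4.47 to -1.84 points without a library. The library block was the main design for the sides, and 1311 genes were called with no replicate block. The alternative with 80% protein identity was not run, and coding identity was used. Depth and low UMI counts of the second receptor both limit the share.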
